A study of Arabidopsis thaliana with 8 samples.

Results

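The contacts described here are those of ycf1, a plastid gene that crosses the border between the small single copy region and one copy of the inverted repeat. They were taken from contact counts between 1 kb bins of the Arabidopsis thaliana plastid chromosome (Pt, TAIR10). The single copy part of the gene fills 4 bins, beside 151 others, at 124001 to 125000, 125001 to 126000, 126001 to 127000 and 127001 to 128000. All bin pairs with at least 1 of these bins were taken, 614 of 12090. The bins were chosen on the measured difference between crosslinked and non-crosslinked libraries, so the differences below are a description of these libraries and carry no p-value. Each bin is named by its first base. The RefSeq gene table places the remaining single copy end of ycf1 in the bin at 123001, together with ndhH and rps15, and its repeat part in the bins at 128001 and 129001.

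ycf1 encodes TIC214, a large membrane protein of the translocon that brings nuclear-encoded proteins across the inner chloroplast envelope. The gene could not be lost from tobacco chloroplasts, although it encodes no component of photosynthesis. Because its 5′ end lies in the repeat, the other repeat copy carries a truncated ycf1 that ends beside ndhF, a gene for a subunit of the chloroplast NADH dehydrogenase-like complex. In Hi-C, restriction ends near each other in the sample are ligated, and every sequenced junction adds a count to a pair of bins.

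All libraries came from leaf chloroplast membranes of wild-type plants of the Col0 ecotype, 14 days old. The 4 crosslinked libraries carry the treatment label EGS, a bifunctional crosslinker, and formaldehyde (5 mM for 45 min and 4% for 4 h in the protocol). The 4 other libraries are labelled non-crosslinked, although the 8 samples share a single protocol description. The labels do not say whether replicates came from separate plants, so errors give the spread between libraries, which may be technical.

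Libraries held 351828 to 708524 contacts. Long-range contacts were counted over more than 5 kb of folded distance, which treats the 2 copies of the repeat as 1 place. They numbered 53264, 29229, 17605 and 10979 in crosslinked replicates 1 to 4, against 50622, 32402, 2649 and 4227 in non-crosslinked replicates 1 to 4. Non-crosslinked replicates 3 and 4 therefore carry the fewest long-range counts, and the main differences were also taken within the deeper libraries (replicates 1 and 2) and the shallower ones (replicates 3 and 4).

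The single copy part of ycf1 had a smaller share of the long-range contacts in crosslinked than in non-crosslinked libraries. Contacts with at least 1 of the 4 bins made up 4.00%, 4.29%, 3.82% and 4.78% of all long-range contacts in crosslinked replicates 1 to 4. In non-crosslinked replicates 1 to 4 they made up 8.26%, 8.62%, 14.8% and 11.3%. The groups did not overlap, and they lay on either side of the 5.17% of long-range bin pairs that hold a ycf1 bin. Counting error was widest in non-crosslinked replicate 3, where 391 of 2649 contacts gave a 95% Wilson interval of 13.5% to 16.2%; such intervals cover counting error only.

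The difference was not even along the gene. Values below are CPM, a bin's long-range counts per 1000000 of the long-range counts summed over bins, with TMM scaling over all bins. Unless stated otherwise, later CPM of same-bin contacts and of contacts with all other bins are each scaled to the sum of their own kind. CPM of adjacent pairs are scaled to the pairs that were tested. The size of a CPM value therefore cannot be compared between these kinds of contact. In the bin at 124001, nearest the 3′ end, they were 5199, 5690, 4560 and 5803 in crosslinked replicates 1 to 4. The non-crosslinked libraries had 11769, 12379, 23536 and 15713 CPM there. Every crosslinked library lay below every non-crosslinked one, with a log2 difference of -1.44 ± 0.17 (SE, n = 4 per group). In the bin at 125001 the crosslinked values were 3784, 4821, 3535 and 4528 CPM, and the non-crosslinked values were 12011, 11937, 23331 and 17940 CPM. The groups were again apart, by -1.82 ± 0.18 (SE) on the log2 scale.

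The bin at 126001 showed the largest difference of the gene. It had 3469, 3755, 2860 and 3737 CPM with crosslinks, against 12749, 13246, 24969 and 19301 CPM without them. The log2 difference was -2.20 ± 0.18 (SE), and the mean was 5.08-fold higher without crosslinks. Among all bins of the map it had the lowest fitted log2 difference. The bin at 127001, which touches the repeat, did not share this difference. Its crosslinked values of 6757, 6313, 7177 and 9012 CPM overlapped the non-crosslinked values of 5728, 6465, 8186 and 6186 CPM, with a log2 difference of 0.19 ± 0.12 (SE).

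In the edgeR quasi-likelihood fit over all bins (Benjamini-Hochberg, threshold 0.05), 3 of the 4 ycf1 bins were past the threshold, all lower in crosslinked libraries. Across the map 67.1% of bins were past it in either direction and 34.8% were lower. Groups that did not overlap were found in 3 of the 4 bins and in 65.2% of all bins. Since this contrast chose the bins, nothing is read from these counts. In the bins that adjoin the 4 chosen ones and hold further parts of the gene, the sign was the opposite. The bin at 123001 had a log2 difference of 0.30 ± 0.10 (SE) and the repeat bin at 128001 one of 0.54 ± 0.10 (SE). This did not extend to all repeat bins with ycf1 sequence. The groups overlapped at 129001 (0.19 ± 0.10 SE) and at 109001 in the other copy (0.07 ± 0.09 SE). The bin at 110001, with the truncated ycf1 and ndhF, was past the threshold as lower (-0.38 ± 0.09 SE), with groups apart. Crosslinked libraries had 5790 ± 456 CPM at 123001 and 6925 ± 794 at 128001 (SD, n = 4), against 4850 ± 480 and 4792 ± 305 (SD, n = 4) in non-crosslinked libraries.

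**Figure D1:**
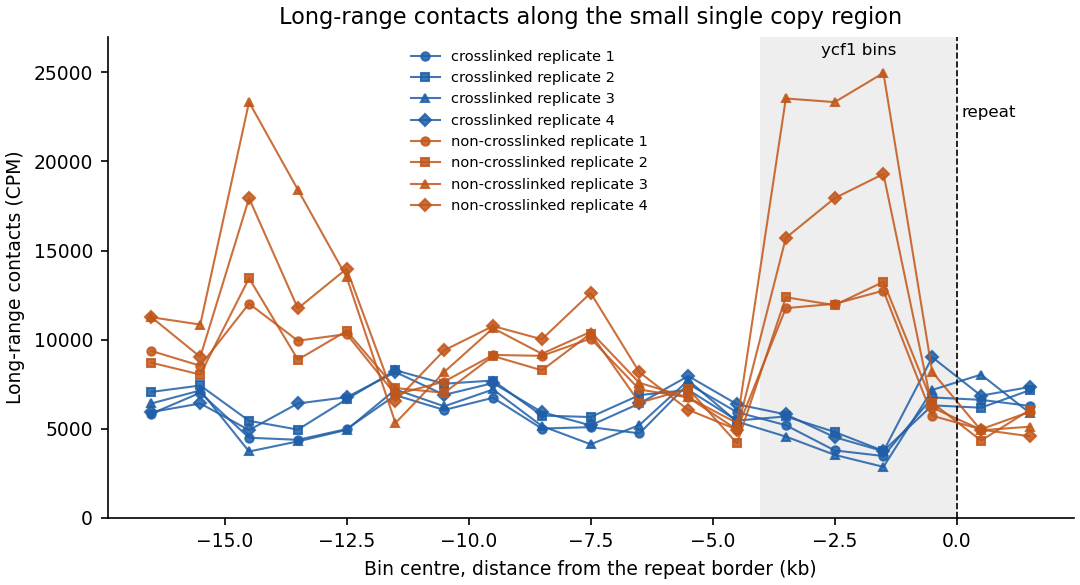
Long-range contacts (CPM) of each bin of the small single copy region and of the first 2 bins of the adjoining repeat, by distance of the bin centre from the repeat border (kb), with 1 line per library. The crosslinked libraries lie at 2860 to 5803 CPM in the first 3 ycf1 bins (grey area) and the non-crosslinked libraries at 11769 to 24969, while the groups overlap in the bin beside the border.

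The order of the bins within a library shows the same contrast without any scaling between libraries. By long-range contacts, the bin at 126001 ranked 1 to 3 of all bins in the non-crosslinked libraries and 151 to 154 in the crosslinked ones. The bin at 125001 ranked 3 to 6 without crosslinks, and in the 4 crosslinked libraries 123 to 151 bins had more long-range contacts than it. The bin at 124001 ranked 3 to 6 against 90 to 129. At 127001 the ranks were 48 to 94 and 9 to 69, so that it held a middle place in most libraries of both groups.

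The scale does matter to the size, and in the shallower libraries to the direction. As CPM of all contacts of a library, with no TMM, the bin at 126001 had 242 to 708 in crosslinked and 342 to 1781 in non-crosslinked libraries, and the groups overlapped in all 4 bins. The non-crosslinked libraries split by depth on that scale, with 1781 and 1358 in replicates 1 and 2 and 342 and 382 in replicates 3 and 4. At 124001, crosslinked replicates 3 and 4 had 459 and 375, above the 322 and 311 of the same non-crosslinked replicates. At 125001 they had 356 and 293 against 319 and 355. In the shallower libraries the lower values at 124001 thus hold only relative to the long-range contacts of other bins. The summed 4 bins differed by -1.43 on the log2 scale (pooled SD of a library, 0.32). Within the deeper libraries the difference was -1.13, and within the shallower ones it was -1.83. Library totals without TMM moved the median log2 difference of all bins from 0.05 to 0.16 and the calls from 50 higher and 54 lower to 66 higher and 46 lower, and the bin at 127001 then passed the threshold as higher (0.29).

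The way distance is counted also matters. By plain circular distance, contacts between the copies of the repeat count as long-range, and these made up 58.1% to 81.2% of such contacts in crosslinked and 66.7% to 94.2% in non-crosslinked libraries. The log2 differences of the bins at 124001, 125001 and 126001 were then -0.73, -1.11 and -1.45. That of the bin at 127001 was 0.88, against 0.19 by folded distance. No bin of the map was past the threshold in edgeR's quasi-likelihood test, with 36 at an unadjusted p under 0.05, while DESeq2 had 66 past it and 85 unadjusted.

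Same-bin contacts, which join ends within 1 kb, placed the same bins high in both groups. The bin at 126001 ranked 2 to 3 of all bins in crosslinked and 1 in all 4 non-crosslinked libraries, with 16408 ± 319 and 16876 ± 2344 CPM (SD, n = 4 each). The bin at 125001 had 13933 ± 560 and 14867 ± 2114 CPM (SD, n = 4 each). These groups overlapped in both bins, and the log2 differences were -0.04 ± 0.10 and -0.09 ± 0.10 (SE). Of the 4 bins, the one at 124001 alone had groups that did not overlap, with 9529, 9750, 9356 and 9633 CPM against 12923, 12172, 14928 and 14984, a log2 difference of -0.52 ± 0.07 (SE).

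Same-bin contacts were few at 127001, with ranks down to 138 in both groups and with 4060 ± 261 and 3582 ± 185 CPM (SD, n = 4 each). Of the 4 bins, those at 124001 (lower) and 127001 (higher, 0.18 ± 0.06 SE) were past the threshold for same-bin contacts, where 51% of all bins were past it and 26.5% were lower. The call at 127001, with overlapping groups, was lost without crosslinked replicate 1, 2 or 3 or without non-crosslinked replicate 1 or 4.

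Long-range contacts were therefore also expressed per same-bin contact of the same bin, relative to the ratio over all bins of the library, where 1 is the library's own average. In non-crosslinked libraries the first 3 ycf1 bins together stood at 0.850, 0.934, 1.30 and 1.04. In crosslinked libraries they stood at 0.326, 0.370, 0.293 and 0.355. The bin at 126001 alone had 0.218 ± 0.0234 and 0.982 ± 0.168 (SD, n = 4 each), and no library of one group reached the other. Beside the border, the bin at 127001 was above 1 in every library, with 1.89 ± 0.419 and 1.78 ± 0.184 (SD, n = 4 each), and its groups overlapped.

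This ratio can be read against the whole map. Across all bins of a library, log2 long-range and log2 same-bin contacts had a Pearson correlation of 0.86 to 0.90 in the 4 non-crosslinked libraries and of -0.14 to 0.22 in the 4 crosslinked ones. Over the 101 single copy bins alone the values were 0.83 to 0.88 and -0.56 to -0.27. Without the 4 ycf1 bins they were 0.85 to 0.89 and -0.07 to 0.28 over 151 bins. Bins of a library share its depth, its neighbours' fragments and the base composition of the region, so these values are a description. The first 3 ycf1 bins lay at the upper end of a rising band without crosslinks.

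**Figure D2:**
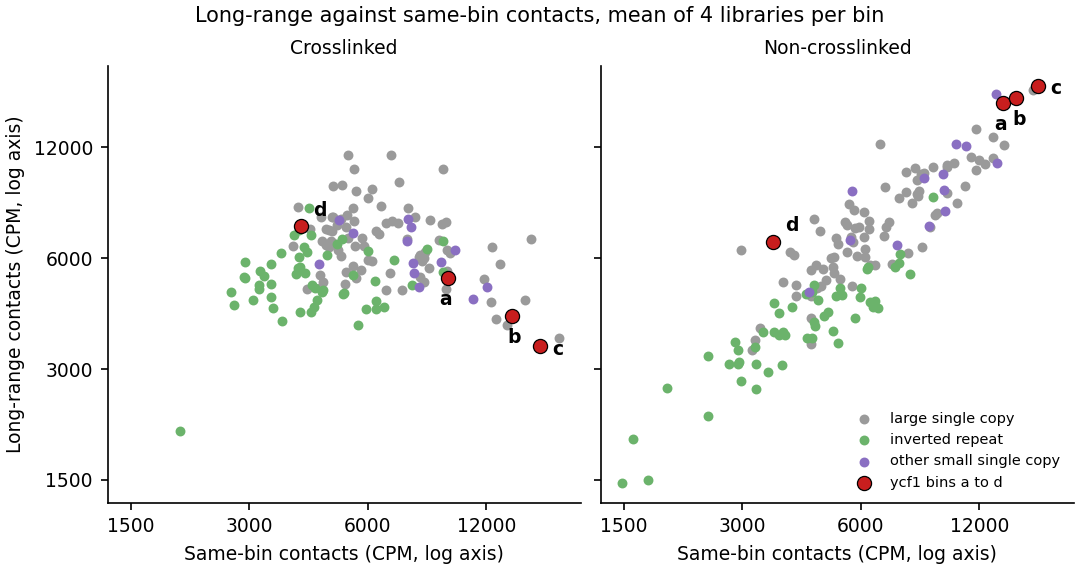
Long-range contacts against same-bin contacts of every bin (CPM, both axes logarithmic, mean of 4 libraries), with crosslinked libraries on the left and non-crosslinked libraries on the right. Red points are the ycf1 bins from the 3′ end (a) to the repeat border (d): a to c have many same-bin contacts in both panels, and their mean long-range contacts are 15849, 16305 and 17566 CPM without crosslinks and 5313, 4167 and 3455 CPM with them.

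Counted with all other bins, near ones included, the ycf1 bins differed less. The totals of the bin at 126001 were 8678, 9999, 8800 and 9220 CPM in crosslinked libraries and 11442, 10429, 15292 and 15167 CPM in non-crosslinked libraries. These groups were apart, with a log2 difference of -0.51 ± 0.13 (SE). The bin at 125001 had -0.39 ± 0.12 (SE) with overlapping groups, and the bins at 124001 and 127001 had -0.18 ± 0.10 and -0.08 ± 0.08 (SE). The bins at 125001 and 126001 were past the threshold, as were 48.4% of all bins, 25.8% being lower; neither was past it within the deeper libraries alone, where the values were -0.15 and -0.24.

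Between neighbouring bins the picture along the gene was different again. The pair of 125001 and 126001 had 2609, 2726, 1648 and 1370 contacts in crosslinked libraries, against 3116, 2169, 1774 and 2132 without crosslinks. It ranked 1 to 3 among all adjacent pairs of each library, and the groups did not differ beyond their spread (log2 difference -0.05 ± 0.13 SE). The next pair, 126001 and 127001, had 2206 ± 85.2 and 2502 ± 437 CPM (SD, n = 4 each) and ranked 13 to 20.

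Of the 5 adjacent pairs with a chosen ycf1 bin, the one across the border into the repeat had the fewest contacts and the largest log2 difference. The pair of 127001 and 128001 had 225, 190, 146 and 120 contacts in crosslinked libraries, against 95, 72, 28 and 45 without crosslinks. It ranked 143 to 152 among the adjacent pairs. In CPM this was 390 ± 43.9 against 119 ± 26.3 (SD, n = 4 each), a log2 difference of 1.64 ± 0.16 (SE) with groups apart. The sequence of the bin at 128001 is shared with the other repeat copy, where the matching bin is at 110001, and how such reads were placed is not given in the sources used here. The next step along the gene, 128001 with 129001 inside the repeat, was also higher in every crosslinked library, with 366, 349, 263 and 210 contacts against 128, 120, 54 and 61. The pair at the other end of the small single copy region, 110001 with 111001, was unlike the border pair of ycf1. It had 2195, 2402, 1578 and 1312 contacts against 2624, 1840, 1246 and 1862, which overlapped, and ranked 2 to 6 among the adjacent pairs. With the bin at 110001, the bin at 127001 had 18, 11, 9 and 6 contacts in crosslinked libraries and 10, 1, 0 and 0 in non-crosslinked libraries.

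At the other end, the pair of 124001 and 125001 had 486, 447, 379 and 279 contacts in crosslinked libraries and 391, 351, 245 and 278 in non-crosslinked libraries (log2 difference 0.45 ± 0.11 SE). The pair of 123001 and 124001 was higher by 0.37 ± 0.09 (SE). On the scale of all contacts of the library, neither pair's groups overlapped. Steps of 2 bins within the gene were rare: 124001 with 126001 had 5, 2, 1 and 1 contacts against 30, 22, 7 and 5, and 125001 with 127001 had 16, 7, 3 and 5 against 12, 14, 0 and 1. In the first pair no crosslinked library exceeded a non-crosslinked one, and in the second the groups overlapped. Of the 381 pairs that passed edgeR's filter on low counts, 9 held a ycf1 bin, namely the 4 same-bin and these 5 adjacent pairs. The filter left out the other 605 ycf1 pairs. Past the threshold were 4 of the 9, of which 3 were higher (the pairs of 123001 with 124001, 124001 with 125001 and 127001 with 128001) and 1 lower (124001 with itself), against 61.4% of all pairs tested.

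**Figure D3:**
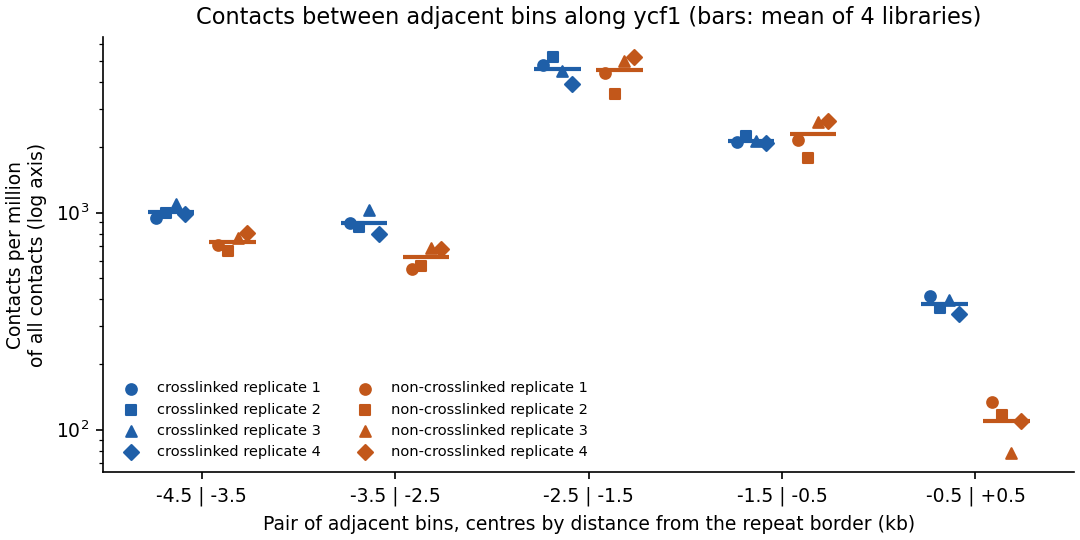
Contacts between adjacent bins as CPM of all contacts of the library (log axis), for the 5 adjacent pairs with a ycf1 bin, placed by the distance of both bin centres from the repeat border (kb). Points are libraries and bars are means of 4. The pair that crosses the border lies at 341 to 414 in crosslinked and 78.4 to 134 in non-crosslinked libraries, the lowest of the 5 in both groups.

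Single long-range pairs held few counts. With no filter and TMM over all 12090 pairs, 41 of the 614 ycf1 pairs were past the threshold, 40 lower and 1 higher, where 1.56% of all pairs were past it and 0.645% were lower. Long-range pairs gave 38 of the 40: 19 with the bin at 126001, 11 with 125001, 8 with 124001 and none with 127001. Of these 38, 29 had their partner in the large single copy region. That region received 66.5% to 72.1% of the long-range contacts of the 4 bins in non-crosslinked libraries, so nothing is read from the 29. The count of 41 rests on the scaling. With the factors of the filtered pairs, 9 ycf1 pairs were past the threshold, of which 6 were lower and 4 of those long-range (0.629% of all pairs were lower). With plain library totals it was 8, with 5 lower and again 4 of those long-range (0.397% of all pairs were lower).

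The 4 long-range pairs with the bins at 65001, 113001 and 27001 were among the 6 with the lowest fitted values, and they were past the threshold under all 3 scalings. The bin at 126001 had 0, 1, 0 and 0 contacts with the bin at 65001, which holds petL and petG for small subunits of the cytochrome b6f complex, against 27, 24, 3 and 3. With the bin at 113001, which holds rpl32 for a ribosomal protein, it had 2, 2, 0 and 1 against 31, 20, 8 and 6. The bin at 125001 had 2, 0, 1 and 0 contacts with the bin at 65001 against 26, 22, 0 and 5. With the bin at 27001, which holds trnC, it had 0, 1, 0 and 0 against 20, 9, 4 and 3.

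The distance between partners was examined in 5 bands, each relative to the mean of all bin pairs of the library in that band. The first 3 ycf1 bins lay below 1 in every crosslinked library and above 1 in every non-crosslinked library at all 5 distances. At 2 to 5 kb the values were 0.588, 0.586, 0.538 and 0.630 against 2.12, 2.43, 5.27 and 3.46. At 41 to 77 kb, the far side of the circle, they were 0.648, 0.767, 0.627 and 0.765 against 1.75, 1.83, 2.83 and 2.53. The groups were thus apart from the nearest band to the farthest. The bin at 127001 had 0.879 ± 0.168 against 1.13 ± 0.0662 at 2 to 5 kb and 1.24 ± 0.203 against 0.931 ± 0.140 at 41 to 77 kb (SD, n = 4 each), with overlapping groups in all 5 bands.

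The 13 other bins of the small single copy region had 0.962 ± 0.0417 against 2.25 ± 0.589 at 2 to 5 kb and 1.03 ± 0.0604 against 1.33 ± 0.0915 at 41 to 77 kb (SD, n = 4 each). They too had the higher values without crosslinks, but near 1 with them, and their groups overlapped at 21 to 40 kb. All single copy bins together, ycf1 included, were also higher without crosslinks, with groups apart in every band. They had 1.21 ± 0.0607 against 1.42 ± 0.145 at 2 to 5 kb and 1.00 ± 0.0137 against 1.11 ± 0.0327 at 41 to 77 kb (SD, n = 4 each).

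**Figure D4:**
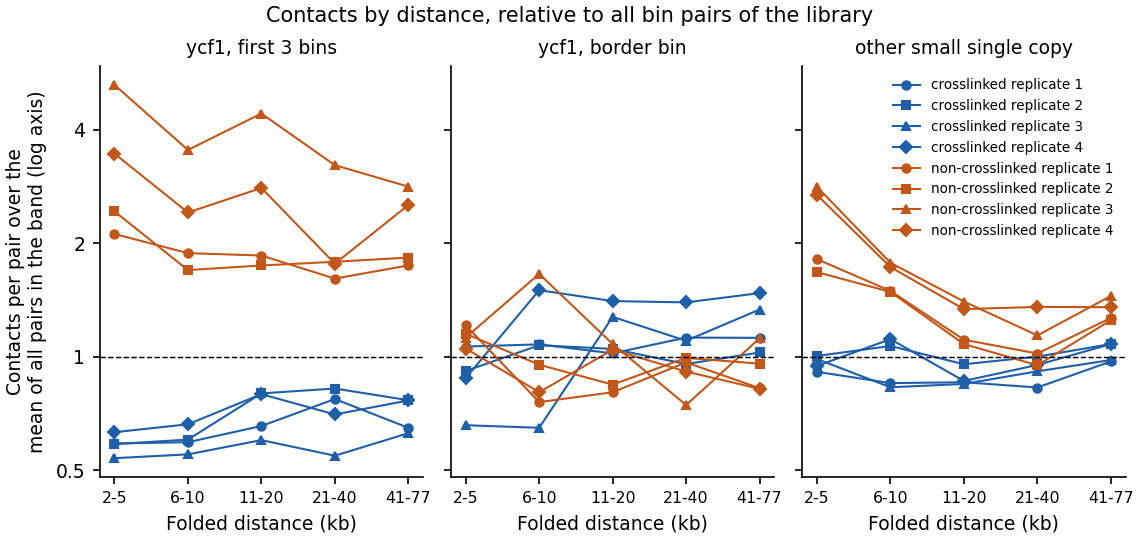
Contacts per bin pair over the mean of all pairs of the library in the same band (log axis), by folded distance (kb), for the first 3 ycf1 bins, the ycf1 bin beside the repeat and the 13 other bins of the small single copy region, with 1 line per library. In the first panel the crosslinked libraries run from 0.538 to 0.823 and the non-crosslinked libraries from 1.61 to 5.27, while both groups overlap around 1 (dashed) in the second, from 0.648 to 1.66.

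The decay of the gene's contacts with distance was compared as the ratio of contacts per pair at 2 to 5 kb over 6 to 20 kb, with single copy partners. It was 1.75, 1.19, 1.69 and 1.15 in crosslinked and 0.949, 1.14, 0.949 and 0.750 in non-crosslinked libraries. The groups did not overlap, with 24 to 231 contacts behind the nearer band of a library. The ratio was 1.53 ± 0.295 and 0.922 ± 0.0950 (SD, n = 4 each) for the other small single copy bins. With partners in the repeat included, the ycf1 ratios were 1.48 ± 0.0820 and 1.46 ± 0.138 (SD, n = 4 each) and overlapped, so this difference depended on which partners were counted.

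By region of the partner, the large single copy region received 60.6%, 61.8%, 61.9% and 59.6% of the long-range contacts of the 4 bins in crosslinked libraries. In non-crosslinked libraries it received 69.2%, 72.1%, 66.5% and 71.3%. The repeat received 31.6%, 28.4%, 29.3% and 28.8% against 19.1%, 16.5%, 18.4% and 15.3%. The groups did not overlap in either share. The small single copy region received 9.53% ± 1.63 and 12.9% ± 1.72 (SD, n = 4 each), with overlap. The other bins of that region divided their contacts much alike, with 60.5% ± 0.373 and 70.4% ± 1.35 in the large single copy region and 32.3% ± 1.25 and 19.6% ± 3.07 in the repeat (SD, n = 4 each). Over all bins the repeat took 28.7% to 32.0% and 17.8% to 23.3%.

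**Figure D5:**
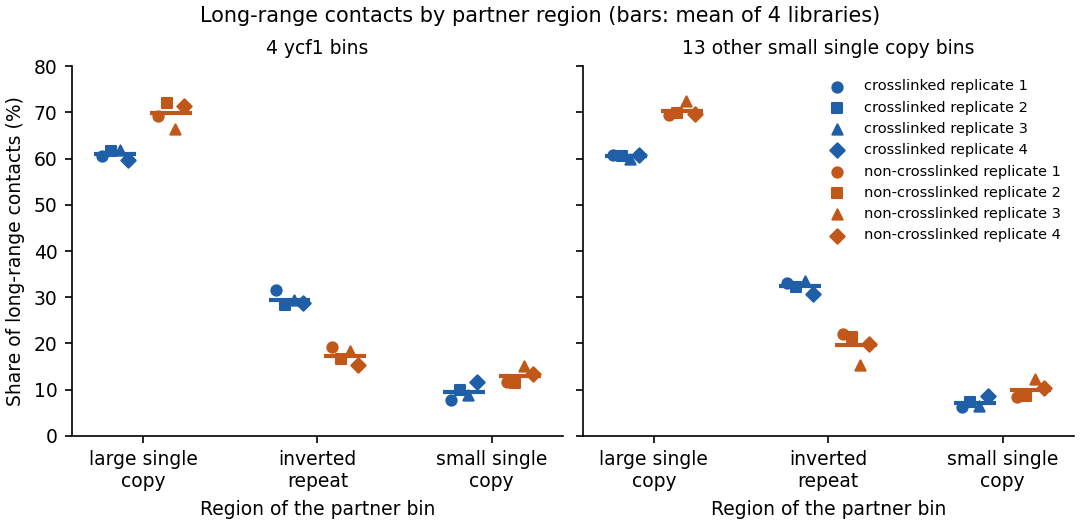
Share of long-range contacts (%) by the region of the partner bin, for the 4 ycf1 bins and for the 13 other bins of the small single copy region. Points are libraries and bars are means of 4. In both panels the repeat takes a larger share in crosslinked libraries (28.4% to 31.6% for ycf1) than in non-crosslinked ones (15.3% to 19.1%).

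Set against what each partner's own long-range total would give, ycf1 contacts inside the small single copy region were 1.39 ± 0.152 times the expected number in crosslinked and 1.22 ± 0.0314 times in non-crosslinked libraries (SD, n = 4 each). Taken alone, the bin at 127001 had 1.37, 1.44, 1.21 and 1.38 against 0.859, 0.941, 0.550 and 0.759. Its groups were apart, and non-crosslinked replicates 3 and 4 had 40 and 50 long-range contacts of that bin. The other small single copy bins also had groups apart, with 1.53 ± 0.130 against 1.13 ± 0.0307 (SD, n = 4 each). The expected numbers take no account of the distance between partners.

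The 5 single partners with the highest mean CPM differed between the groups, although some ranked high in libraries of both. Without crosslinks they were rpl32 (113001), petL and petG (65001), atpH for a subunit of ATP synthase (13001), trnT (31001), and ccsA, needed for attaching haem to cytochromes, with ndhD (115001). The bin of rpl32 had 82, 72, 20 and 16 contacts with the 4 ycf1 bins in non-crosslinked replicates 1 to 4, and 15, 11, 1 and 4 in crosslinked replicates. It ranked 1 or 2 among the partners without crosslinks and 39 to 137 with them. The bin of petL and petG had 79, 72, 10 and 11 against 9, 6, 4 and 2, with ranks of 1 to 4 and 82 to 129.

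With crosslinks the leading partners were ndhF (112001 and 111001), trnY and trnE (30001), petB and petD for cytochrome b6f subunits (76001), and psbA, the D1 protein of photosystem II, with trnK (1001). They were named by mean CPM in crosslinked libraries, and their ranks varied more between libraries. ndhF at 111001 ranked 3 to 99 in crosslinked and 9 to 39 in non-crosslinked libraries. Its mean rank was nearer the top without crosslinks (17.5) than with them (30.5). The bin of petB and petD ranked 1 to 77 in crosslinked libraries. Its mean rank was 28.5 with and 82 without crosslinks, and the groups overlapped. trnY and trnE ranked 1 to 15 against 3 to 21. ndhF at 112001 had 23, 21, 14 and 8 contacts against 58, 31, 6 and 6, and ranked 1 to 12 in crosslinked and 10 to 30 in non-crosslinked libraries. psbA and trnK had 30, 17, 10 and 4 against 27, 19, 2 and 3, and ranked 1 to 47 against 50 to 65.

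Other genes were taken as lists chosen with earlier results of these data in view. Bins of ycf2, accD and clpP, plastid genes with roles outside photosynthesis, took 13.1% ± 0.977 of ycf1 long-range contacts in crosslinked and 8.75% ± 1.56 in non-crosslinked libraries (SD, n = 4 each). Over the number expected from their totals this was 0.983 ± 0.0469 and 0.871 ± 0.156, with overlap. The ribosomal RNA genes gave 1.05 ± 0.0732 and 0.850 ± 0.150, the photosystem core genes with rbcL 0.911 ± 0.123 and 0.874 ± 0.0772, and the RNA polymerase genes 0.959 ± 0.0954 and 0.907 ± 0.104 (SD, n = 4 each). The groups overlapped in all of these.

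By their own long-range totals, 13 of 21 bins of ycf2, accD and clpP were past the threshold as higher in crosslinked libraries. A further 4 were lower, and the median log2 difference was 0.70. The list holds both copies of ycf2, which lies in the repeat. The bins of accD had mean long-range CPM of 6802 and 5329 in crosslinked against 7278 and 9116 in non-crosslinked libraries. Those of clpP had 6532, 5629 and 5300 against 6037, 10579 and 9381. The median thus does not describe each gene of the list. Of 12 ribosomal RNA bins 4 were higher and none lower (median 0.22), of 16 photosystem bins 7 were higher and 4 lower (median 0.18), and of 14 RNA polymerase bins 3 were higher and 7 lower (median -0.25). Over all bins 50 were higher and 54 lower, with a median of 0.05. The 14 bins of the other genes of the small single copy region had 1 higher and 10 lower, with a median of -0.39.

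Several of these neighbours were also lower in crosslinked libraries. rpl32 at 113001 had 4496, 5444, 3723 and 4924 CPM of long-range contacts in crosslinked and 12021, 13451, 23331 and 17940 in non-crosslinked libraries, a log2 difference of -1.71 ± 0.18 (SE). trnL and ccsA at 114001 had -1.14 ± 0.17, ndhA, a subunit gene of the NADH dehydrogenase-like complex, had -1.07 ± 0.11 at 120001, and ccsA with ndhD at 115001 had -0.98 ± 0.14 (SE). Between these and ycf1 lay bins with little difference, such as 0.14 ± 0.10 at 116001 (ndhD) and 0.14 ± 0.09 at 122001 (ndhA and ndhH).

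Among all bins of the map the lowest fitted log2 differences after that of 126001 were -1.98 ± 0.17 at petL and petG (65001), -1.82 at 125001 of ycf1, -1.71 at rpl32, -1.68 ± 0.12 at trnC (27001) and -1.53 ± 0.14 at atpH (13001), followed by -1.44 at 124001 of ycf1 (SE).

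The bins whose long-range totals followed those of ycf1 most closely over the 8 libraries, contacts between the 2 left out, were rpl32 at 113001, rps16 with trnQ at 6001 and petL with petG at 65001, with Pearson correlations of log2(CPM + 1) of 0.989, 0.989 and 0.988. They were followed by trnL with ccsA at 114001 (0.986) and rpoC2, a subunit gene of the plastid-encoded RNA polymerase, at 17001 (0.979). The 8 libraries fall into the 2 groups, so these values mostly hold the difference between groups. The likeness did not need an equal size: the log2 difference was -0.84 ± 0.12 at rps16 with trnQ and -0.47 ± 0.09 (SE) at rpoC2. By same-bin contacts these bins ranked 5 to 13 (rpl32), 6 to 12 (rps16 with trnQ), 2 to 7 (petL with petG), 15 to 40 (trnL with ccsA) and 71 to 115 (rpoC2).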

How the data were processed

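The authors deposited raw counts per pair of 1 kb bins, without normalization. Per the submitters' processing notes, Trim Galore 0.4.1 and Juicer were used with the build TAIR10; filters, the enzyme and the placing of reads with several positions are not given in the sources used here. Total contacts are the depth of a library. Groups and replicate numbers came from sample titles. The repeat was located from mirrored bin pairs that shared 1000 or more contacts, which gave 27 bins per copy, 84 large and 17 small single copy bins. Gene names came from a RefSeq table of TAIR10.1, whose coordinates are not printed; 3 ribosomal RNA genes matched by symbol. Bin totals and pairs were fitted with edgeR 4.0.16 in R 4.3.3 (quasi-likelihood, TMM, prior count 2, Benjamini-Hochberg; filterByExpr with a minimum count of 10 for pairs), with DESeq2 1.42.0 as an alternative. SE is the log2 difference over the square root of F. Expected contacts spread each ycf1 bin's long-range total over its long-range partners in proportion to their own totals. Python 3.11.15 with numpy 2.4.6 was used. On simulated counts, all 30 long-range totals changed 2-fold were recovered, and 3.23% of the calls were false. The simulation had a fixed spread and changed 30 of 155 bins, equally up and down, whereas 67.1% of bins were called here. It therefore does not test the scaling where most bins differ. Named genes are those of the small single copy region, of 4 fixed lists, of the 5 leading partners per group and of the 5 most alike bins; the single pairs and the bins with the lowest differences were named after their values were seen. The members and lists were chosen with earlier results of these data known. Alternatives were other scalings, distances, filters, a replicate block and left-out libraries.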

Additional observations from a re-analysis of the deposited data

Results flagged for a closer look

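In 9 of 128 groups of 4 libraries, one library stood apart from the other 3 by Dixon's test at the 95% level, which chance alone gives in about 1 in 20 groups. Among single partners, crosslinked replicate 4 had the lowest contacts of the 4 ycf1 bins with psbA and trnK (1001), 176 CPM against 270, 279 and 270. Non-crosslinked replicate 1 was lowest with trnY and trnE (30001), at 667 CPM against 1009, 1023 and 989.8. Non-crosslinked replicate 4 was highest with petB and petD (76001), at 742 CPM against 212, 158 and 205; its value comes from 6 contacts.

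In the bin at 125001, crosslinked replicate 2 was highest by contacts with all other bins, at 8429 CPM against 7419, 7527 and 7369. Crosslinked replicate 4 was highest there by same-bin contacts, at 14768 CPM against 13664, 13724 and 13575. For contacts of the first 3 ycf1 bins with the large single copy region over the expected number, crosslinked replicate 4 was lowest, at 0.904 against 0.942, 0.947 and 0.948.

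At 21 to 40 kb, the 4 ycf1 bins relative to all pairs of the band were lowest in crosslinked replicate 3, at 0.678 against 0.855, 0.855 and 0.866. In the same band non-crosslinked replicate 3 was highest, at 2.64 against 1.46, 1.60 and 1.56, and for the first 3 bins alone at 3.23 against 1.61, 1.79 and 1.77. Non-crosslinked replicate 3 has the fewest long-range contacts of all libraries, 2649.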

How the results depend on the processing

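Of 312 recomputed values, 278 were counted as kept. Counts of calls were kept within a set factor of the main count, such as 57 bins against 75 for contacts with all other bins. The other kept values held their direction and their side of the threshold, or moved within the stated spread. For the long-range differences of the bins at 124001, 125001 and 126001 this held for 48 of 51, the exceptions being those by circular distance over 5 kb (-0.73, -1.11 and -1.45, with -0.55 for the 4 bins and 0 bins called in all). The bin at 127001 passed the threshold with library totals (0.29) and with repeat bins left out (0.37). For the 4 bins together, shallower libraries gave -1.83 for long-range contacts. Deeper and shallower libraries gave -0.17 and -0.51 for contacts with all other bins and -0.0041 and -0.32 for same-bin contacts. Leaving out each library gave -1.56 to -1.29 for the long-range contacts. The sign turned for contacts of 127001 with all other bins with library totals (0.0095), deeper libraries (0.10) and left-out libraries (-0.13 to 0.0014). It also turned for same-bin contacts of 125001 (0.068) and 126001 (0.14) with deeper libraries, and of 126001 with left-out libraries (-0.10 to 0.032). With no filter, 41 ycf1 pairs were past the threshold, against 4 of those tested, and 9 or 8 with scalings added after seeing the data. The difference of the near over far ratio was 0.016 with all partners. The cause of these changes was not tested. Same-numbered libraries correlated at 0.45, -0.28, -0.28 and 0.24 in their long-range deviations and at 0.63, -0.21, 0.17 and 0.36 in those with all other bins, so these do not show that the numbers pair the libraries. In same-bin deviations they correlated at 0.34, 0.38, 0.20 and 0.59, and each library matched its own number best, a hint from the data that the labels do not state. With a replicate block the same-bin differences were -0.52, -0.08, -0.03 and 0.18, with no ycf1 bin changing its side of the threshold and 85 bins called against 79. With this block the long-range differences were -1.46, -1.84, -2.21 and 0.14, with 101 bins called against 104 and 5 ycf1 pairs against 4. Non-crosslinked replicates 3 and 4, with 2649 and 4227 long-range contacts, limit single pairs to a few counts.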
